A study of Mus musculus with 15 samples.

Results

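The genes described are 9 members of the NF-kappaB pathway, chosen by symbol from 14272 named genes of the deposited table. They are the subunits Nfkb1, Nfkb2, Rela and Relb, the inhibitors Nfkbia and Tnfaip3, the interleukin-1 receptor gene Il1r1, and the adhesion targets Icam1 and Vcam1. All 9 had a row in the table and passed the filter on low values. RNA was sequenced from quadriceps of DBA/2J-mdx males, which lack dystrophin and serve to model Duchenne muscular dystrophy, in 3 groups of 5 libraries. The vehicle group was injected intraperitoneally with DMSO on 7 occasions a week. The weekly group had prednisone, a synthetic glucocorticoid, at 1 mg/kg on 1 occasion and DMSO on the other 6. The daily group had prednisone at 1 mg/kg on all 7. Every group carried the mdx mutation, so healthy muscle was not part of the comparison. The labels give an age of 6 months in the protocol and of about 7 months for the samples. They give neither the length of treatment nor the time between the last dose and sampling, and do not say whether libraries of a group are separate animals. P-values therefore measure the spread between these libraries, which may be technical.

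NF-kappaB is a family of dimeric transcription factors that is held in the cytoplasm by IkappaB proteins and released when receptors for cytokines such as tumour necrosis factor or interleukin-1 signal through the IkappaB kinase. In the nucleus it switches on genes of inflammation and leukocyte adhesion, and also genes for its own inhibitors, which end the response. Glucocorticoids are known to repress transcription driven by NF-kappaB through their receptor and to induce the inhibitor gene Nfkbia in several cell types, and NF-kappaB activity is a known feature of dystrophic muscle. The question addressed was which of the 9 transcripts were lower, and which higher, under weekly or daily prednisone.

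Promoter sequence before the start site was at hand from RefSeq (GRCm38.p6) for 6 of the 9 members, in 10 windows of 250 bases. No window was at hand for Nfkb1, Relb or Vcam1. Windows of 3 members that lie wholly before the annotated gene are shown, those of the inhibitor gene Nfkbia, the receptor gene Il1r1 and the adhesion gene Icam1. They are given 5′ to 3′ on the strand of the gene. Capitals mark a match to the kappaB consensus, a pattern of letters for sites that NF-kappaB dimers bind. The Nfkbia window is chr12:55492648-55492897 on the minus strand, the Il1r1 window is chr1:40224830-40225079 on the plus strand, and the Icam1 window is chr9:21015690-21015939 on the plus strand.
Nfkbia: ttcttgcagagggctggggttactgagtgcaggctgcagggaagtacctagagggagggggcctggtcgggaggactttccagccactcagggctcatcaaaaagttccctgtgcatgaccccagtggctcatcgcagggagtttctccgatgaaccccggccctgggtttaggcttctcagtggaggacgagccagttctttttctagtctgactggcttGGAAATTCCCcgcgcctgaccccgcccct
Il1r1: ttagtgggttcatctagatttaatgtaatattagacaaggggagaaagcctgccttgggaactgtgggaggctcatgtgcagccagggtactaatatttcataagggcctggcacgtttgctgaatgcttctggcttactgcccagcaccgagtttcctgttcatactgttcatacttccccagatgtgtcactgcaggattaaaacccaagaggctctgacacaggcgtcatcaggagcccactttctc
Icam1: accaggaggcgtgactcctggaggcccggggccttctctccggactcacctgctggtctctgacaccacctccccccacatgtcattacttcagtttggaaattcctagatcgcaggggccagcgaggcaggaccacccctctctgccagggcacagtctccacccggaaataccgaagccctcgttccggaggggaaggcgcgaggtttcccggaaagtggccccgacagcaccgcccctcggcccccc
The Nfkbia window held 1 match, 29 to 20 bases before the start. The Il1r1 and Icam1 windows shown held 0. The pattern requires GGG at its start, and the Icam1 window holds tggaaattcc, which departs from it in the first base only. A count of 0 therefore does not mean that a window lacks a kappaB site. A second Il1r1 window, at a start inside the gene, held 1 match. Nfkb2 and Tnfaip3 held matches as well, with 1 more in each of the 2 further Nfkb2 windows, which are not shown, and match sites in the first windows of these autoregulated genes are given here, each 5′ to 3′ on the strand that carries the motif, with the whole match in capitals.
Nfkbia match: GGGAATTTCC
Nfkb2 match: GGGAATTCCC
Nfkb2 match nearest the start: GGGGCTTTCC
Tnfaip3 match: GGGACACCCC
Tnfaip3 match nearest the start: GGGGATTTCC
The Nfkb2 sites lie at chr19:46304698-46304707 and chr19:46304726-46304735, and the Tnfaip3 sites at chr10:19015526-19015535 and chr10:19015413-19015422. The first Nfkb2 site overlaps a further match on the other strand that is shifted by 1 base. Searched on both strands, the kappaB consensus was present in 3.9% of 32851 mouse promoter windows of the same length. The half-site of the glucocorticoid receptor, AGAACA, was present in 16.1% of those windows and its longer palindromic site in 0.387%. Among the 10 windows of the members, the half-site was found in the second Tnfaip3 window and the second Il1r1 window, and the palindrome in 0. These matches describe letters in the windows and say nothing of binding in these mice.

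Levels are in CPM, reads on a gene scaled to a common library size. Per kilobase of annotated exon, Nfkbia stood highest of the members in vehicle muscle at 9.63 ± 0.634 CPM per kb (SD, n = 5). Rela followed at 6.13 ± 0.883 and Nfkb2 at 5.09 ± 0.551 CPM per kb, and the ranges of these subunits overlapped. Il1r1 had 4.06 ± 0.165 CPM per kb. Relb at 3.05 ± 0.223 and Nfkb1 at 2.96 ± 0.142 CPM per kb could not be ordered, since their ranges overlapped. The ranges of Tnfaip3, at 2.21 ± 0.198, and Icam1, at 1.76 ± 0.217 CPM per kb, overlapped too, and Vcam1 was lowest at 0.748 ± 0.0691 CPM per kb. Read numbers behind a single value ran from 23 for Vcam1 to 498 for Il1r1. Vcam1, Relb and Icam1 are thus the members with the fewest reads.

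A few facts of the libraries bear on all values. Weekly replicate 4 was the shallowest library, with 2780768 reads, and held 0.570% of its reads on mt-Rnr2 against 6.23% to 9.44% in the other weekly libraries. Daily replicate 3 had 20.6% of its reads on Gm26924, which lowers the share left for other genes. The biological coefficient of variation was 3.55% among vehicle, 29.4% among weekly and 9.40% among daily libraries. On the deposited scale the median gene changed by 0.17 in weekly and by -0.08 in daily against vehicle, and by -0.24 in daily against weekly (log2). With TMM scaling, a trimmed mean of ratios between libraries, those medians were 0.01, 0.00 and 0.01, so the results of the members are given on the deposited scale and, where a call differs, also on the TMM scale. The mature muscle fibre markers, 10 of 10 in the table, summed to 144834 to 282563 CPM in a library, as the tissue label states.

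Nfkbia, which encodes IkappaB alpha, the inhibitor that retains NF-kappaB in the cytoplasm, rose under daily prednisone and, less firmly, under weekly prednisone. The gene lies at chr12:55489410-55492647 on the minus strand of GRCm38. Its level was 16.2, 16.7, 14.1, 15.4 and 15.1 CPM in vehicle replicates 1 to 5. In weekly replicates 1 to 5 it was 20.2, 15.7, 25.6, 56.5 and 26.3 CPM, and in daily replicates 1 to 5 it was 33.1, 32.5, 24.5, 36.6 and 33.7 CPM. Every daily library lay above every vehicle library, whereas weekly replicate 2 fell within the vehicle range and weekly replicate 4 stood far above all others. Group means were 15.5 ± 1.02 CPM in vehicle, 28.8 ± 16.04 CPM in weekly and 32.1 ± 4.53 CPM in daily libraries (SD, n = 5 each). Daily against vehicle the log2 change was 1.01 ± 0.23 (SE), with a 95% interval from 0.54 to 1.49, a 2.02-fold difference (limma adjusted p = 0.0111). It was 1.09 above the change of the median gene, and 1.1 on the TMM scale (limma adjusted p = 0.00154). Weekly against vehicle the log2 change was 0.73 ± 0.23 (limma adjusted p = 0.0484). That weekly call rested on a value at the threshold: leaving out any 1 of 12 libraries gave limma adjusted p-values from 0.0520 to 0.108, all but weekly 1, weekly 2 and daily 3. The weekly log2 change was 0.46 without weekly replicate 4, and 0.56 on the TMM scale (limma adjusted p = 0.0832).

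The daily and weekly levels of Nfkbia differed by 0.28 on the log2 scale, a difference that limma did not call (adjusted p = 0.427, 95% interval -0.19 to 0.75). Without weekly replicate 4 the difference was 0.56 (limma adjusted p = 0.0149), and without it on the TMM scale 0.79 (limma adjusted p = 2.82e-05). In that library the 9 fibroblast markers summed to 19375 CPM, against 1663 to 1870 CPM in vehicle libraries, and the 12 macrophage and monocyte markers to 1805 CPM, against 473 to 500 CPM. Most of the fibroblast sum was Col1a1 and Col3a1 (up to 7723 and 10610 CPM). The other fibroblast markers went both ways. Fbn1 reached 695 CPM in its highest weekly library (vehicle 185 to 198 CPM), Pdgfra 125 CPM (64.6 to 74.7 CPM) and Ly6a 43.0 CPM (17.7 to 22.1 CPM). Dcn, at most 188 CPM in weekly libraries, did not exceed its vehicle range of 187 to 206 CPM. In weekly against vehicle, 5 of the 9 markers changed by more than the median gene. Lyz2 was the largest part of the macrophage sum (up to 893 CPM). Csf1r reached 268 CPM in its highest weekly library (vehicle 60.8 to 74.1 CPM), Itgam 113 CPM (12.3 to 17.0 CPM) and C1qa 112 CPM (22.0 to 26.5 CPM). Their lowest weekly values, 24.0, 6.81 and 11.1 CPM in that order, lay below vehicle. Over the whole group, limma called 0 of the 12 macrophage markers in weekly against vehicle, a test that does not describe a single library. The part of fibroblasts and macrophages in the Nfkbia level of weekly replicate 4 was not tested. In RNA from whole muscle, a change in the number of cells of a type and a change in RNA per cell cannot be told apart.

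Tnfaip3, the other inhibitor, encodes a ubiquitin-editing enzyme that is itself induced by NF-kappaB and shuts off signalling upstream of the IkappaB kinase. It lies at chr10:19000910-19015657 on the minus strand. Vehicle replicates 1 to 5 had 18.0, 15.9, 14.3, 15.04 and 16.6 CPM. Weekly replicates 1 to 5 had 14.1, 14.7, 18.1, 30.2 and 17.5 CPM, and daily replicates 1 to 5 had 11.9, 10.3, 8.52, 13.4 and 12.9 CPM. All daily libraries lay below all vehicle and all weekly libraries, while weekly and vehicle libraries overlapped. Against vehicle the daily log2 difference was -0.48 ± 0.19, which limma did not call (adjusted p = 0.173), nor did it on the TMM scale (-0.40, adjusted p = 0.1001). Without weekly replicate 4, whose spread enters the shared fit, the same difference was called (limma adjusted p = 0.0346). Daily against weekly Tnfaip3 fell by 0.67 ± 0.19 on the log2 scale (limma adjusted p = 0.0302). The fall was 0.43 beyond that of the median gene. Limma no longer called it on the TMM scale (-0.41, adjusted p = 0.117) or when weekly 3, weekly 5, daily 2 or daily 3 was left out (adjusted p from 0.0513 to 0.0735). Weekly against vehicle the difference was 0.19 (limma adjusted p = 0.558).

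**Figure D1:**
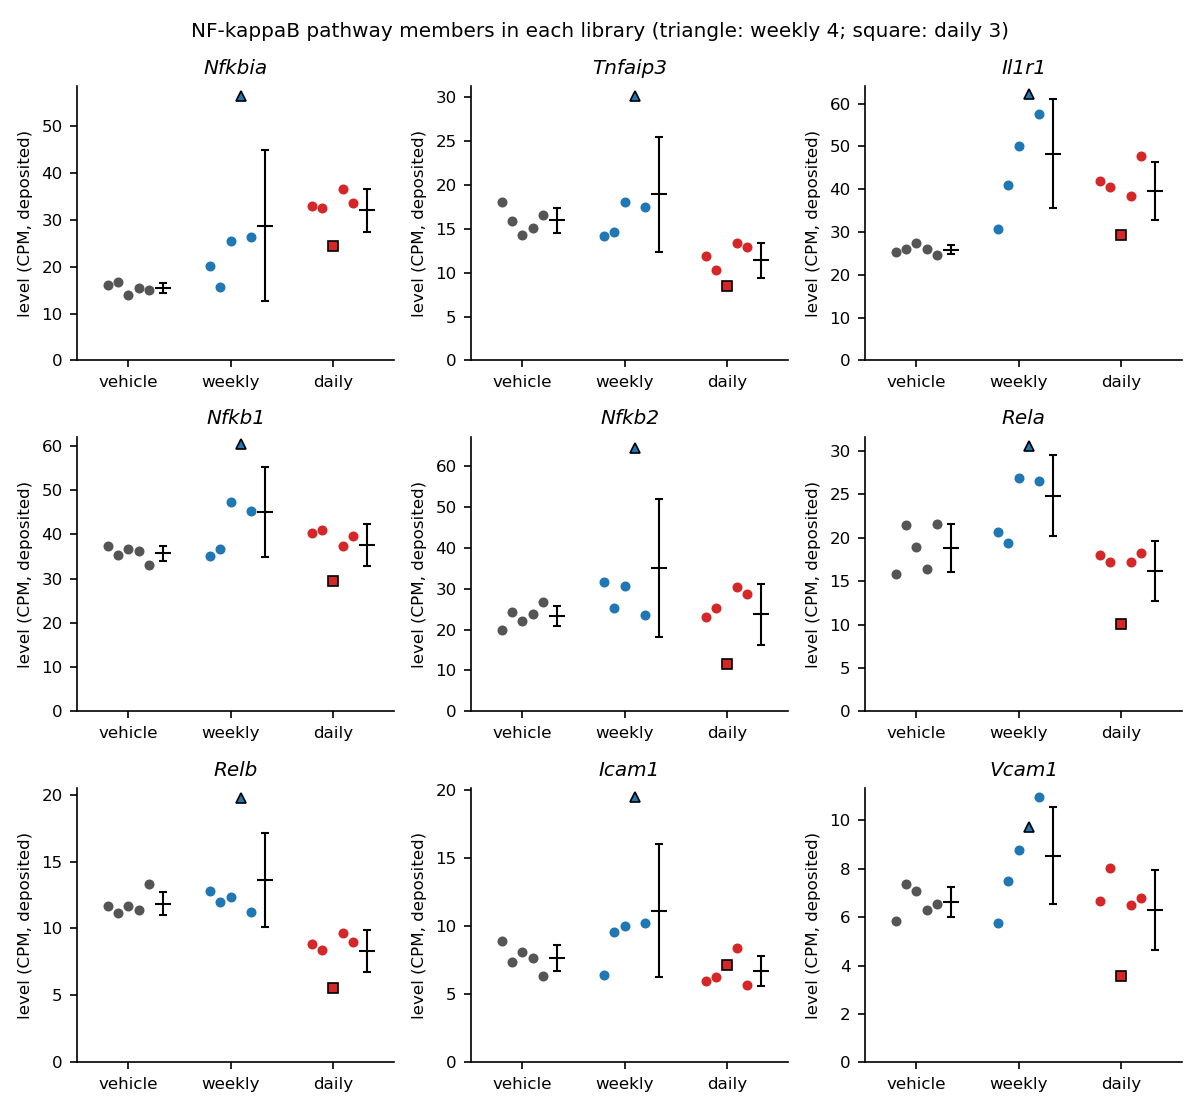
Level of each member in every library (deposited CPM, linear axes from 0) by group, with dots for libraries, a triangle for weekly replicate 4, a square for daily replicate 3, and the bar to the right of each group giving the mean and SD (n = 5). Nfkbia in daily libraries lies between 24.5 and 36.6 CPM, above the vehicle range of 14.1 to 16.7 CPM, and Relb and Tnfaip3 in daily libraries lie below both other groups.

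In daily libraries the inhibitors lay on opposite sides of vehicle, which shows most plainly within libraries, where scaling cancels. Nfkbia had 17.3 ± 1.41 reads per 100 reads of the 4 subunit genes in vehicle, 23.1 ± 5.84 in weekly and 37.8 ± 3.36 in daily libraries (SD, n = 5 each). The daily range, 35.2 to 43.3, lay above the vehicle range of 15.8 to 19.1 and the weekly range of 16.8 to 32.2. Tnfaip3 had 17.9 ± 1.98 reads per 100 subunit reads in vehicle, 15.8 ± 1.17 in weekly and 13.4 ± 1.43 in daily libraries. The daily Tnfaip3 range, 11.2 to 15.1, lay below the vehicle range of 16.03 to 21.2 and overlapped the weekly range of 14.1 to 17.2. These ratios were chosen with the levels known and are given without a test. They depend on gene length and on the subunit sum, which itself differed between groups on the deposited scale.

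**Figure D2:**
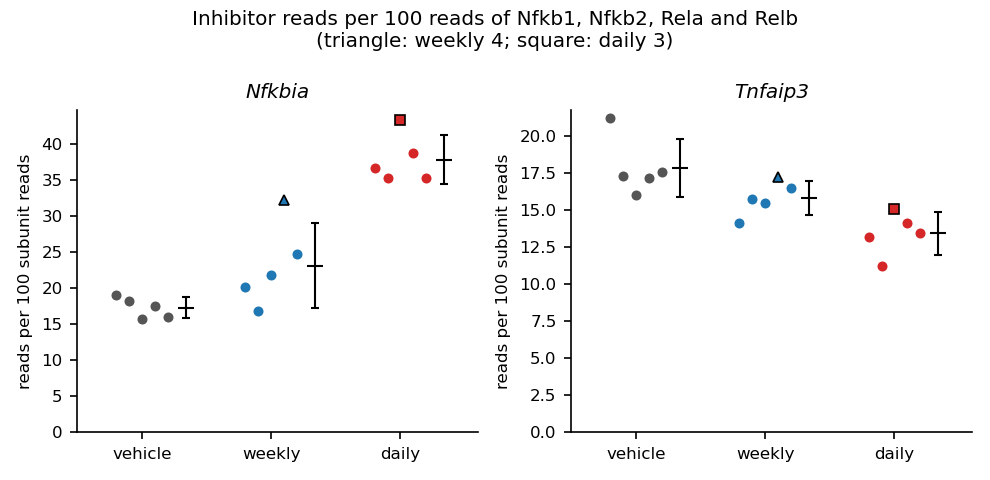
Reads of Nfkbia (left) and Tnfaip3 (right) per 100 reads of Nfkb1, Nfkb2, Rela and Relb together in each library (axes from 0), with dots for libraries, a triangle for weekly replicate 4, a square for daily replicate 3, and bars for the mean and SD (n = 5). The Nfkbia ratio is 35.2 to 43.3 in daily and 15.8 to 19.1 in vehicle libraries.

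Among the subunits, Relb was the member with the clearest separation. It encodes the partner of the processed Nfkb2 product in the non-canonical pathway and lies at chr7:19606217-19629438 on the minus strand. Vehicle replicates 1 to 5 had 11.7, 11.1, 11.7, 11.4 and 13.3 CPM. Weekly replicates 1 to 5 had 12.8, 11.9, 12.4, 19.8 and 11.2 CPM, and daily replicates 1 to 5 had 8.86, 8.42, 5.58, 9.63 and 9.01 CPM. The daily libraries were below those of both other groups without overlap on either scale. Daily against weekly Relb fell by 0.68 ± 0.18 on the log2 scale (limma adjusted p = 0.0233), and the TMM value was -0.42 (limma adjusted p = 0.0666). The daily against vehicle difference was -0.51 ± 0.18, not called on the deposited scale (limma adjusted p = 0.125). On the TMM scale it was -0.43 and was called (limma adjusted p = 0.0427), as it was on the deposited scale without weekly replicate 4 (limma adjusted p = 0.0331). Weekly against vehicle Relb differed by 0.17 (limma adjusted p = 0.587), and by -0.01 with TMM.

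Rela encodes the main transactivating subunit of the canonical pathway and lies at chr19:5637483-5648130 on the plus strand. Vehicle replicates 1 to 5 had 15.8, 21.4, 18.9, 16.4 and 21.6 CPM. Weekly replicates 1 to 5 had 20.7, 19.4, 26.9, 30.6 and 26.6 CPM, and daily replicates 1 to 5 had 18.0, 17.3, 10.1, 17.2 and 18.3 CPM. The daily libraries lay below the weekly ones on the deposited scale and within or below the vehicle range. Daily against weekly Rela fell by 0.61 ± 0.18 (log2, limma adjusted p = 0.0355), of which 0.38 was beyond the median gene. With TMM the groups overlapped and the difference was -0.35 (limma adjusted p = 0.0915). Leaving out vehicle 3, weekly 3, weekly 5, daily 3 or daily 5 also ended the call (limma adjusted p from 0.0501 to 0.0820), and without daily replicate 3 the difference was -0.46. Against vehicle Rela differed by 0.38 in weekly (limma adjusted p = 0.189) and by -0.23 in daily libraries (limma adjusted p = 0.551).

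Nfkb1 and Nfkb2 encode precursor proteins that are processed to DNA-binding subunits, and the unprocessed precursors act as inhibitors. Nfkb1, at chr3:135584655-135691547 on the minus strand, had 33.01 to 37.4 CPM in vehicle, 35.1 to 60.4 CPM in weekly libraries and 29.4 to 41.0 CPM in daily ones. All ranges overlapped, and its daily against vehicle log2 difference was 0.06, with a 95% interval from -0.24 to 0.37 (limma adjusted p = 0.878). Nfkb2, at chr19:46304320-46312385 on the plus strand, had 19.96 to 26.7 CPM in vehicle, 23.5 to 64.4 CPM in weekly libraries and 11.5 to 30.3 CPM in daily ones. The Nfkb2 extremes were weekly replicate 4 and daily replicate 3. The daily against vehicle difference of Nfkb2 was -0.04 (95% interval -0.55 to 0.47, limma adjusted p = 0.961) and 0.05 with TMM. Daily against weekly the differences were -0.24 for Nfkb1 and -0.52 for Nfkb2, neither called by limma (adjusted p = 0.292 and 0.169), and for Nfkb1 the TMM value was 0.03. Nfkb2 shares 299 annotated bases with Psd on the opposite strand, and strand use in counting is unknown here, so reads of the 2 genes cannot be told apart there.

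Il1r1, the signalling receptor of interleukin-1 and a route into the pathway, was higher in both prednisone groups in every library. It lies at chr1:40225080-40317257 on the plus strand. Vehicle replicates 1 to 5 had 25.3, 26.1, 27.4, 26.0 and 24.5 CPM. Weekly replicates 1 to 5 had 30.7, 41.1, 50.1, 62.2 and 57.5 CPM, and daily replicates 1 to 5 had 41.8, 40.6, 29.3, 38.3 and 47.7 CPM. Neither prednisone group overlapped vehicle, and the prednisone groups overlapped each other. Weekly against vehicle Il1r1 rose by 0.85 ± 0.17 on the log2 scale (limma adjusted p = 0.00318) and by 0.67 with TMM (limma adjusted p = 0.00207). Daily against vehicle the difference was 0.59 ± 0.17, just outside the threshold (limma adjusted p = 0.0561). It was 0.67 and called with TMM (limma adjusted p = 0.00170), and it was called on the deposited scale without weekly 1, weekly 4 or daily 3 (limma adjusted p from 0.00566 to 0.0214). Daily against weekly the deposited difference of -0.26 was not called (limma adjusted p = 0.317), and with TMM it was 0.00. Markers of fibroblasts, which are known to express this receptor, had none of 9 at 0 and summed to 1663 to 1870 CPM in vehicle, 1798 to 19375 CPM in weekly libraries and 1633 to 2903 CPM in daily ones. Most of the highest weekly sum was collagen mRNA, Col1a1 (up to 7723 CPM) and Col3a1 (up to 10610 CPM). Dcn, with at most 188 CPM in weekly libraries against 187 to 206 CPM in vehicle, was not higher. The weekly log2 change was -0.56 for Dcn and -0.25 for Lum, but 0.51 for Fbn1, 0.54 for Ly6a and 0.27 for Pdgfra. Of the 9 markers, 1 rose in weekly libraries by limma, Col1a1, and 0 in daily ones, with median log2 changes of 0.27 and -0.09. With TMM 0 rose and 1 fell in weekly libraries. Their part in the Il1r1 level was not tested.

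The adhesion targets Icam1 and Vcam1 encode receptors on activated endothelium that leukocyte integrins bind, and both are classical NF-kappaB targets. Icam1 lies at chr9:21015985-21028817 on the plus strand and had 8.89, 7.37, 8.13, 7.63 and 6.33 CPM in vehicle replicates 1 to 5. It had 6.41, 9.59, 9.97, 19.4 and 10.2 CPM in weekly and 5.96, 6.25, 7.13, 8.37 and 5.68 CPM in daily replicates 1 to 5. The 3 groups overlapped. Against vehicle the Icam1 log2 difference was 0.43 in weekly (limma adjusted p = 0.228) and -0.19 in daily libraries (95% interval -0.64 to 0.26, limma adjusted p = 0.711). Daily against weekly it was -0.62 (limma adjusted p = 0.0727), and -0.78 without weekly replicate 1, which limma then called (adjusted p = 0.0221). With TMM it was -0.36 (limma adjusted p = 0.348), and 2 of 32 alternatives called it.

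Vcam1 lies at chr3:116109949-116129688 on the minus strand and had 5.84, 7.37, 7.10, 6.30 and 6.56 CPM in vehicle replicates 1 to 5. It had 5.74, 7.51, 8.76, 9.71 and 10.96 CPM in weekly and 6.65, 8.02, 3.56, 6.49 and 6.79 CPM in daily replicates 1 to 5. All groups overlapped, and daily replicate 3 was the lowest library. Against vehicle the Vcam1 log2 difference was 0.31 in weekly (limma adjusted p = 0.355) and -0.11 in daily libraries (95% interval -0.53 to 0.32, limma adjusted p = 0.843). Without daily replicate 3 the latter was 0.07. The intervals of Icam1 and Vcam1 leave room for a fall or a rise under daily prednisone, so neither a repression nor its absence was resolved. The 10 endothelial markers, none at 0, summed to 258 to 275 CPM in vehicle, 271 to 426 CPM in weekly libraries and 162 to 265 CPM in daily ones, and their part in the adhesion transcripts was not tested.

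**Figure D3:**
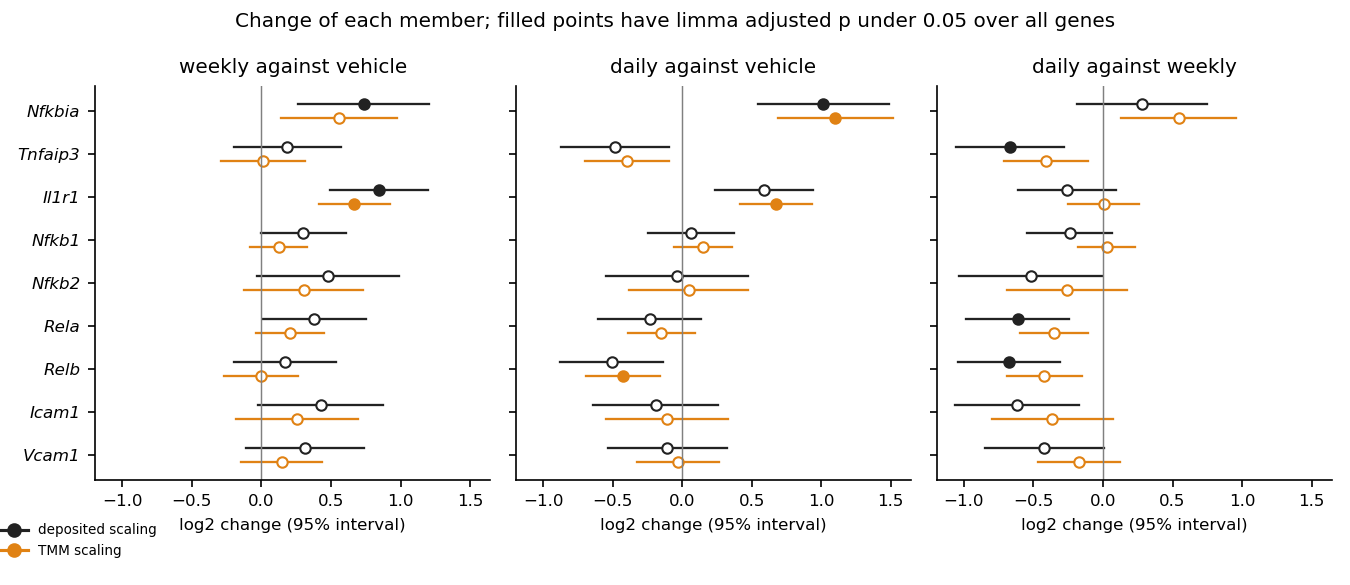
Log2 change of each member in the 3 comparisons (points) with its 95% interval (lines), from limma on the deposited scale (black) and on the TMM scale (orange), filled where the adjusted p over all genes was under 0.05. Nfkbia is called in daily against vehicle on both scales (1.01 and 1.1), Il1r1 in weekly against vehicle on both (0.85 and 0.67), and in daily against weekly 3 members are called on the deposited scale and 0 with TMM.

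Set against vehicle, 2 of the 9 members rose and 0 fell under weekly prednisone, where limma called 8.06% of all 14059 genes tested, 6.99% of them upward. The 2 were Nfkbia and Il1r1. By edgeR 1 and by DESeq2 2 of the members were called upward, beside 1007 and 1160 of the 14059 genes. Neither tool called a member downward. At an unadjusted limma p under 0.05, 0 members were downward, where 3451 genes passed in either direction. Under daily prednisone 1 member rose, Nfkbia, and 0 fell, beside 3.89% of all genes called and 1.76% called upward. At an unadjusted p under 0.05 limma had 2 members downward, Relb and Tnfaip3, and 2 upward, beside 2335 of the 14059 genes in either direction. By edgeR and DESeq2 1 member each was called downward, Relb, beside 505 and 676 genes called downward. With TMM, limma called Nfkbia and Il1r1 upward and Relb downward, beside 9.07% of all genes. In weekly against vehicle it called 1 member, Il1r1, beside 9.90% of all genes. Without weekly replicate 4 and daily replicate 3, a choice made after seeing the data, 4 members were called on the deposited scale: Nfkbia and Il1r1 higher, Relb and Tnfaip3 lower. That is for daily against vehicle, where the same fit called 2422 of 13936 genes. In daily against weekly, 3 members fell (Rela, Relb and Tnfaip3) and 0 rose, beside 8.73% of all genes called and 8.24% called downward. Without both libraries 4 were called, with Nfkbia added as higher, beside 2044 of 13936 genes. On the TMM scale, and with edgeR and DESeq2, 0 members were called in daily against weekly (4.71% of all genes with TMM), while 3 were lower and 1 higher at an unadjusted p under 0.05. At that threshold 2737 of the 14059 genes passed with TMM, 2750 with edgeR and 2721 with DESeq2. Groups that did not overlap were met for Nfkbia and Il1r1 upward in daily against vehicle, beside 2.45% of all genes, and for Relb and Tnfaip3 downward, beside 8.82% of all genes. With TMM the same 4 members did not overlap, beside 19.6% of all genes in either direction. Il1r1 did not overlap upward in weekly against vehicle (11.8% of all genes), and Rela, Relb and Tnfaip3 did not overlap downward in daily against weekly (6.98% of all genes). With TMM, Relb and Tnfaip3 remained apart in daily against weekly, beside 2.53% of all genes. The comparisons with vehicle share the same 5 vehicle libraries.

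The rest of the pathway was read from 9 lists with 133 genes, of which 107 had a row and 106 were tested. Under weekly prednisone 21 of the 106 rose and 0 fell by limma, beside 6.99% of all genes called upward. At an unadjusted limma p under 0.05, 37 rose and 1 fell, where 3451 of 14059 genes passed in either direction. By edgeR 3 and by DESeq2 5 were called downward, beside 578 and 744 of all genes. The median change was 0.31 against 0.17 for all genes. Under daily prednisone 8 rose and 1 fell, beside 1.76% of all genes called upward, with a median of 0.03 against -0.08. With TMM the counts were 18 risen and 3 fallen for weekly and 15 risen and 2 fallen for daily. The shares of all genes called in either direction were then 9.90% and 9.07%. The lists, like the members, were chosen with earlier results known, and the counts are a description. The counts of single lists below stand beside the same shares, and beside 8.24% called downward in daily against weekly. Small counts are not read as a trait of a list.

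Some genes of the IkappaB kind, and some that restrain the pathway, were among those that rose with Nfkbia. Of 7 other IkappaB-type genes, 2 rose in each prednisone group, Bcl3 and Nfkbiz, which encode nuclear IkappaB proteins that modulate NF-kappaB on DNA. Bcl3 went from 3.15 ± 1.16 CPM in vehicle to 12.3 ± 3.35 CPM in weekly and 8.90 ± 2.01 CPM in daily libraries, and both prednisone groups lay above vehicle. Its log2 change was 1.83 in weekly (limma adjusted p = 5.54e-05) and 1.40 in daily libraries (limma adjusted p = 0.00118). Nfkbiz rose by 1.12 and 1.02 (limma adjusted p = 0.00194 and 0.00592). Of 15 other brakes tested, 2 rose in each prednisone group: Zfp36, whose product speeds the decay of cytokine mRNAs, and Tnip2, whose product binds the Tnfaip3 protein. Zfp36 went from 12.6 ± 0.535 CPM in vehicle to 29.8 ± 8.82 CPM in weekly and 34.8 ± 7.69 CPM in daily libraries (log2 change 1.16 and 1.40, limma adjusted p = 5.69e-04 and 1.18e-04). Tnip2 rose by 1.39 and 1.00 (limma adjusted p = 5.61e-04 and 0.0124).

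Some genes that carry the signal forward were called upward as well. Of 11 kinases, 2 rose in weekly and 1 in daily libraries. Map3k8, an activator of ERK signalling downstream of the IkappaB kinase, went from 6.29 ± 1.43 CPM to 16.9 ± 3.68 CPM in weekly and 15.2 ± 3.76 CPM in daily libraries, with log2 changes of 1.35 and 1.19 (limma adjusted p = 3.13e-04 and 0.00135). Map3k14, the kinase that starts the non-canonical pathway, rose by 0.81 in weekly libraries (limma adjusted p = 0.0152). Of 21 adaptors, 3 rose in weekly and 1 in daily libraries. Card14, a scaffold that activates NF-kappaB in skin, had the steepest change, from 2.86 ± 0.678 CPM to 70.1 ± 44.9 CPM in weekly and 42.3 ± 12.7 CPM in daily libraries. Single weekly libraries ran from 36.4 to 146 CPM for Card14. Its log2 change was 4.22 and 3.64 (limma adjusted p = 7.35e-09 and 1.14e-07). Myd88, the adaptor of the interleukin-1 and Toll-like receptors, rose by 1.23 in weekly libraries (limma adjusted p = 0.00125). Rel, the one further subunit, rose by 0.64 in weekly libraries (limma adjusted p = 0.0458), a call lost without any 1 of 9 libraries (adjusted p from 0.0537 to 0.119) and with TMM (0.47, adjusted p = 0.0649).

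Receptors went both ways. Of 14 tested, 2 rose in weekly libraries, and 1 rose and 1 fell in daily libraries. Tnfrsf12a, the receptor of the cytokine TWEAK, rose by 1.15 in weekly (limma adjusted p = 1.48e-04) and by 0.67 in daily libraries (limma adjusted p = 0.0219), the latter lost without any 1 of 7 libraries (adjusted p from 0.0526 to 0.0712). Tlr2, a receptor for bacterial lipoproteins, fell by 0.87 in daily libraries, from 7.16 ± 0.470 CPM to 3.89 ± 1.45 CPM without overlap (limma adjusted p = 0.0273). That call was lost without any 1 of 7 libraries (adjusted p from 0.0512 to 0.0879), and kept with TMM (-0.79, adjusted p = 0.0144). Tnfrsf1a, the main receptor of tumour necrosis factor, rose by 0.89 in weekly (limma adjusted p = 0.0232) and was 0.83 lower in daily than in weekly libraries (-0.83, limma adjusted p = 0.0336). Both Tnfrsf1a calls, and that of the lymphotoxin receptor Ltbr in daily against weekly (-0.62, limma adjusted p = 0.0337), were lost when single libraries were left out (adjusted p up to 0.109 for Tnfrsf1a and 0.0770 for Ltbr). With TMM the differences in daily against weekly were not called (-0.57 for Tnfrsf1a and -0.35 for Ltbr, limma adjusted p = 0.120 and 0.192). Of 11 ligand genes only 3 had a row, and of these Il33 rose in weekly libraries at the threshold (0.96, limma adjusted p = 0.0494; up to 0.133 without 1 library). With TMM this Il33 change was 0.79 and not called (limma adjusted p = 0.0805).

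Among other kappaB targets, 6 of 18 tested rose in weekly and 1 in daily libraries. Bcl2l1, which protects cells from apoptosis, rose by 1.19 in weekly and by 1.18 in daily libraries (limma adjusted p = 0.00282 and 0.00411). Mmp9, a matrix-degrading gelatinase, rose by 2.22 in weekly libraries, from 1.43 ± 0.213 CPM to 11.2 ± 10.5 CPM (limma adjusted p = 7.89e-04). Single weekly libraries ran from 2.67 to 29.5 CPM for Mmp9. It stood at 1.94 ± 0.699 CPM in daily libraries, lower than weekly by 1.92 (-1.92, limma adjusted p = 0.00385). Lcn2, an iron-sequestering protein of inflamed tissue, was lower in daily than in weekly libraries as well (-0.998, limma adjusted p = 0.0333; up to 0.0865 without 1 library), a call lost with TMM (-0.75, adjusted p = 0.133). Of 16 other adhesion molecules and integrins, 2 rose in weekly libraries and 3 fell in daily against weekly. F11r, a junctional adhesion molecule, went from 5.72 ± 1.03 CPM in vehicle to 11.1 ± 2.87 CPM in weekly and 5.93 ± 1.27 CPM in daily libraries. F11r differed by 0.89 in weekly against vehicle (limma adjusted p = 0.00740) and by -0.85 in daily against weekly (limma adjusted p = 0.0124). The latter call was lost with TMM (-0.60, limma adjusted p = 0.0633), and under median centring, quantile normalization, a fit of the groups compared alone and weights by group (adjusted p from 0.0615 to 0.0832). Itgax, an integrin chain of dendritic cells and macrophages, rose by 1.51 in weekly libraries (limma adjusted p = 0.00865). In daily libraries its difference of 1.06 from vehicle was not called (limma adjusted p = 0.0929), while with TMM it was 1.15 and called (limma adjusted p = 0.0388). Pecam1, an endothelial adhesion molecule and one of the endothelial markers above, was -0.51 in daily against weekly (limma adjusted p = 0.0401; up to 0.106 without 1 library), and -0.25 and not called with TMM (adjusted p = 0.160). Where a list had no call in daily against weekly, the gene with the smallest p was Myd88 (-0.58), Tab1 (-0.57), Nkiras1 (-0.40), Tnip1 (-0.41), Il33 (-0.73) or Rel (-0.31), with limma adjusted p-values from 0.0787 to 0.297.

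**Figure D4:**
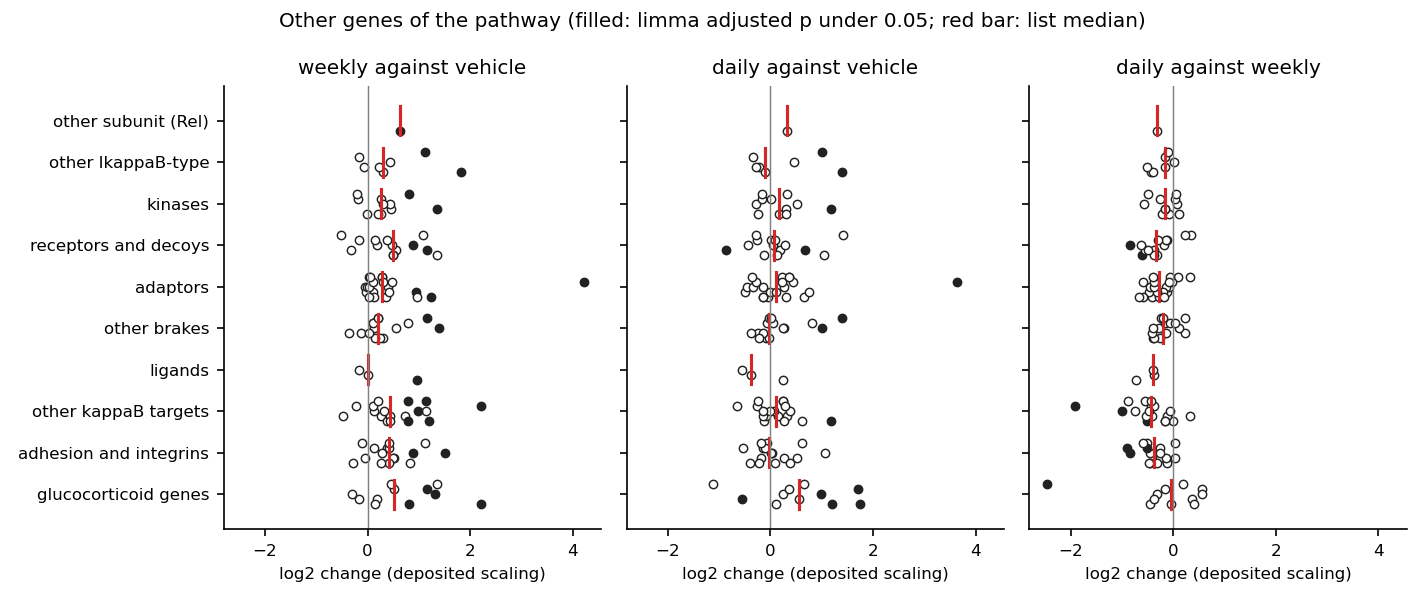
Log2 change of each tested gene of the 10 further lists (points, deposited scale) in the 3 comparisons, filled where the limma adjusted p was under 0.05, with a red bar at the median of each list. Of the 9 pathway lists together, 21 genes are called upward in weekly and 8 in daily against vehicle, beside 6.99% and 1.76% of all genes. The point at the far right is Card14, at 4.22 and 3.64.

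A list of 11 genes, the glucocorticoid receptor gene Nr3c1 and its classical targets, was read beside the pathway. Of these, 4 rose in each prednisone group, beside 6.99% of all genes called upward in weekly and 1.76% in daily libraries. The targets Per1, Dusp1, Klf9 and Sgk1 were called in neither group by limma on the deposited scale. Their log2 changes were -0.30, 0.19, 0.15 and 0.52 in weekly and 0.25, 0.56, 0.11 and 0.37 in daily libraries. The 1 that fell in daily libraries was Nr3c1 itself, from 159 ± 7.38 CPM in vehicle to 110.0 ± 17.04 CPM (-0.55, limma adjusted p = 0.0486). With TMM 6 of the 11 rose in daily libraries and 0 fell, so the Nr3c1 call was lost. Fkbp5, a chaperone of the receptor, went from 30.5 ± 3.50 CPM in vehicle to 101 ± 14.5 CPM in daily libraries (log2 change 1.71, limma adjusted p = 6.71e-04). Zbtb16, a transcription factor induced by glucocorticoids, went from 79.5 ± 3.11 CPM to 186 ± 34.4 CPM in daily libraries (1.20, limma adjusted p = 0.00103). Cebpd and Errfi1, also known targets, rose by 2.20 and 1.32 in weekly libraries (limma adjusted p = 1.99e-04 and 5.92e-04). In daily libraries Cebpd and Errfi1 rose by 1.75 and 0.99 (limma adjusted p = 0.00236 and 0.00933). Fkbp5 rose in weekly libraries too, by 1.15 (limma adjusted p = 0.0123). Hsd11b1, whose product regenerates active glucocorticoid, had 16.4 ± 14.8 CPM in weekly and 1.59 ± 0.463 CPM in daily libraries (-2.47, limma adjusted p = 0.00354). The gene whose pattern over the 15 libraries was nearest to that of Nfkbia, among 9593 genes compared, was Zbtb16. The mean absolute difference of their centred log2 values was 0.12, where Nfkbia itself deviated from its own mean by 0.49. Wbp1l (0.14) and Sik1 (0.15) came next. For Il1r1 the nearest was Vcan (0.09), for Relb Pfdn5 (0.10), for Rela Gnai3 (0.09), for Tnfaip3 Gna12 (0.09), for Icam1 Csrp1 (0.13) and for Vcam1 Heatr6 (0.06). For Nfkb1 it was Capn2 (0.06) and for Nfkb2 Snapc2 (0.12).

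Leukocytes are the other cells in which these genes are known to act. None of 8 lymphocyte markers and 1 of 6 neutrophil markers had a row, so those cells are not analysed here. The 12 macrophage and monocyte markers were all in the table, none at 0 in any library. By limma 0 of the 12 rose or fell in either prednisone group against vehicle. They summed to 473 to 500 CPM in vehicle, 208 to 1805 CPM in weekly libraries and 287 to 595 CPM in daily ones. The adipocyte markers, 8 of 8 in the table, summed to 754 to 811, 975 to 2939 and 450 to 851 CPM in the same order. Plin4 alone gave 319 to 556 CPM of the daily sums, and the list moved otherwise by gene: by limma 4 of 8 rose in weekly libraries (median log2 change 1.01), 4 of 8 fell in daily ones (-1.27) and 6 of 8 fell in daily against weekly (-2.28). With TMM these counts were 2, 4 and 6, and 1 marker rose in daily libraries against vehicle. Satellite cell and regenerating fibre markers, 6 of 7 in the table, summed to 158 to 174, 223 to 934 and 158 to 332 CPM. The part of these cells in the levels of the 9 members was not tested.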

How the data were processed

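Per the labels, total RNA of quadriceps was sequenced as stranded libraries with paired 150-base reads. Per the submitters' processing notes, TopHat2 2.1.0, HTSeq and edgeR were used with mm10 (GRCm38). Strand use in counting is not given in the sources used. The authors deposited 1 table for 15 libraries. The labels name RPKM, but the deposited values are CPM: 222090 of 222090 are whole multiples of 1 read within 0.01 reads, with a step that is the same for all genes, so reads could be recovered. Depth was 2780768 to 11052552 reads, and 3 reads equal 0.271 to 1.08 CPM, which covers counting error only. Of 14806 features, 534 without a gene name (0.276% to 0.447% of a library) were left out.

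The test was limma 3.58.1 in R 4.3.3 with a mean-variance trend on log2(CPM + 0.5), 15 libraries in 1 fit with group as the only term. This scale understates changes of low genes. Genes needed 1 CPM in 5 libraries (14059 tested, 213 removed). P-values were adjusted by Benjamini-Hochberg over all genes tested, and an adjusted p under 0.05 was called. The test was run on simulated counts, drawn from vehicle means with 1 spread per group. No simulated library stood apart as weekly replicate 4 and daily replicate 3 do, so that run does not cover their effect on the calls. Alternatives, 33 in all, included edgeR 4.0.16 (quasi-likelihood, and TMM scaling) and DESeq2 1.42.0 on recovered reads.

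Members and lists were chosen with earlier results of these data known. All members are named. From each further list the genes named are the 2 called with the smallest p per comparison, or 1 where none was called, and the rest are counts. For each member the genes nearest in mean absolute difference of centred log2 values (mean of at least 5 CPM) were found. Replicates differed beyond sampling noise in every group. Chi-square per degree of freedom was 1.50 to 2.04 in vehicle, 19.5 to 92.9 in weekly and 4.84 to 225 in daily libraries. Each library was counted as a sample. An excess as small as that of vehicle cannot tell separate animals from technical replicates. Positions and exon lengths are from GENCODE M21.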

Additional observations from a re-analysis of the deposited data

Results flagged for a closer look

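In 6 of 27 groups of 5 libraries, 1 library stood apart from the other 4 by more than its share of the range allows at the 95% level. Chance flags about 1 group in 20. Weekly replicate 4 was such a library for 4 members: Nfkb2 at 64.4 CPM (others 23.5 to 31.5 CPM), Nfkbia at 56.5 CPM (others 15.7 to 26.3 CPM), Tnfaip3 at 30.2 CPM (others 14.1 to 18.1 CPM) and Relb at 19.8 CPM (others 11.2 to 12.8 CPM). Daily replicate 3 was such a library for Rela, at 10.1 CPM (others 17.2 to 18.3 CPM). Vehicle replicate 5 was such a library for Relb, at 13.3 CPM (others 11.1 to 11.7 CPM).

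Members whose response differed between the dosing schedules, by the direct test of daily against weekly libraries, were Relb (log2 change -0.68), Tnfaip3 (-0.67) and Rela (-0.61), each with a limma adjusted p under 0.05 on the deposited scale and none of them with TMM scaling.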

How the results depend on the processing

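For Nfkbia in daily against vehicle the call held under 32 of 33 alternatives, and for Il1r1 in weekly against vehicle under 32 of 33. The exception in each case was averaging the vehicle libraries to 1 sample, where the p-values rest on the spread of the compared prednisone group alone. In weekly against vehicle limma called 1133 genes, and 1904 were called by DESeq2, 5690 with array quality weights, 3340 without both weekly 4 and daily 3 (2406 with TMM scaling as well), 1811 with weights by group and 0 with vehicle averaged (303 at an unadjusted p under 0.05). Members called there were 2, and 1 with a pseudocount of 0.1, with TMM scaling, median centring, quantile normalization, edgeR, the fit of the 2 groups compared and TMM scaling without both libraries, 7 with array quality weights and 0 with vehicle averaged. In daily against vehicle 547 genes were called, and 1275 with TMM scaling, 1230 with median centring, 1290 with quantile normalization, 1332 by edgeR, 1596 by DESeq2, 3532 with array quality weights, 1665 in the fit of the 2 groups, 83 with vehicle averaged, 2422 without both libraries (2849 with TMM scaling as well) and 1195 with weights by group. Members called there were 1, and 3 with TMM scaling, median centring, quantile normalization, edgeR, DESeq2 and weights by group, 4 with array quality weights, the fit of the 2 groups and without both libraries on either scale, and 0 with vehicle averaged. In daily against weekly 1227 genes were called, and 662 with TMM scaling, 644 with median centring, 702 with quantile normalization, 747 by edgeR, 3449 with array quality weights, 228 in the fit of the 2 groups, 2044 without both libraries and 560 with weights by group. Members called there were 3, and 0 with TMM scaling, median centring, quantile normalization, edgeR, DESeq2, the fit of the 2 groups and weights by group, 5 with array quality weights and 1 without both libraries with TMM scaling. Leaving out 1 library at a time gave 645 to 2251 genes and 1 to 2 members in weekly against vehicle, 347 to 1478 genes and 1 to 4 members in daily against vehicle, and 521 to 1888 genes and 1 to 4 members in daily against weekly. With TMM scaling, without weekly 4 or daily 3, the ranges were 1266 to 2401 genes and 1 to 2 members, 987 to 2997 genes and 2 to 4 members, and 427 to 1884 genes and 0 to 1 members. Of calls in daily against weekly, 5.54% were upward on the deposited scale and 43.8% with TMM scaling; in weekly against vehicle the shares were 86.8% and 57.8%, and in daily against vehicle 45.3% and 61.6%.

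Directions that turned all belong to differences that were not called. Under TMM scaling, median centring, quantile normalization, and TMM without both libraries, in that order, the log2 difference was 0.026, 0.043, 0.051 and 0.068 for Nfkb1 in daily against weekly (0.027 by edgeR, 0.033 by DESeq2), 0.004, 0.021, 0.030 and 0.053 for Il1r1 in daily against weekly, 0.045, 0.002, 0.029 and 0.150 for Nfkb2 in daily against vehicle (0.071 by edgeR, 0.060 by DESeq2, 0.141 with array quality weights, 0.198 without both libraries), and -0.006, -0.073, -0.069 and -0.124 for Relb in weekly against vehicle (-0.019 by edgeR, -0.042 by DESeq2). Tnfaip3 in weekly against vehicle was -0.054 with median centring, -0.048 with quantile normalization, -0.008 by DESeq2 and -0.148 without both libraries with TMM. Vcam1 in daily against vehicle was 0.058 with array quality weights, 0.069 without both libraries and 0.023 with TMM as well, and Nfkb2 in daily against weekly was 0.070 without both libraries with TMM. Leaving out 1 library at a time gave -0.144 to 0.198 for Nfkb2 and -0.198 to 0.069 for Vcam1 in daily against vehicle. With TMM, without weekly 4 or daily 3, Nfkb2 in daily against vehicle was 0.045 to 0.152, Relb -0.113 to -0.025 and Tnfaip3 -0.136 to -0.008 in weekly against vehicle, Vcam1 0.025 in daily against vehicle without daily 3, and Nfkb1 0.107 and Il1r1 0.074 in daily against weekly without weekly 4. The cause was not tested.

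Replicate numbers are shared by the groups but did not pair the libraries: deviations of 15 same-numbered pairs had correlations from -0.0293 to 0.146. Each library was also looked up among the 5 of each other group. The best match bore its own number in 4 of 30 such look-ups. With the number as a replicate block, 1096, 494 and 985 genes and 2, 1 and 2 members were called in weekly against vehicle, daily against vehicle and daily against weekly. Depth limits the low members most: Vcam1 rested on as few as 23 reads and Relb on 36.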

Other observations

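Within libraries, the receptor and the adhesion targets could also be set against the 4 subunit genes, free of scaling. Il1r1 had 28.9 ± 1.85 reads per 100 subunit reads in vehicle, 41.4 ± 8.91 in weekly and 46.5 ± 4.49 in daily libraries (SD, n = 5 each). Both prednisone ranges, 30.7 to 54.0 and 40.5 to 51.8, lay above the vehicle range of 25.9 to 30.6. Icam1 had 8.59 ± 1.39, 9.17 ± 1.82 and 8.16 ± 2.71 reads per 100 subunit reads in the same order, and Vcam1 had 7.39 ± 0.547, 7.42 ± 1.94 and 7.27 ± 0.899. The group means of the adhesion targets differed by less than their spread between libraries on this scale.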
